A study of Mus musculus with 2 samples.

Results

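The vascular endothelial growth factor (VEGF) family was followed here through 9 genes: the ligands Vegfa, Vegfb, Vegfc and Pgf, the receptors Flt1, Kdr and Flt4, and the neuropilins Nrp1 and Nrp2. They were taken by name, as every gene probe whose RefSeq transcript belongs to one of them, which gave 12 probes on 22 spots. All 9 were found among 20887 named genes on the array, and all 9 lay well above background on both arrays.

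The cells were primary pericytes, which wrap small vessels, cultured from the corpus cavernosum of the penis of C57BL/6 mice. The high glucose group was exposed to glucose labelled 30 mmol and the normal glucose group to glucose labelled 5 mmol, each for 72 h, with no volume given. Both groups shared a medium with 20% serum and human PEDF (pigment epithelium-derived factor) at 10 nM, a secreted protein known as an inhibitor of angiogenesis. Each group was a pool of RNA from 3 samples hybridised to 1 array, so there was no replicate, no test across genes and no p-value, and every difference is between these 2 pools. An osmotic control was not analysed here.

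VEGF ligands are secreted dimers that drive the growth and permeability of blood and lymphatic vessels through receptor tyrosine kinases. KDR (VEGFR2) carries most of the signal of VEGF-A in endothelium, FLT1 (VEGFR1) binds VEGF-A tightly but signals weakly and can act as a decoy, and FLT4 (VEGFR3) is the receptor of lymphatic endothelium for VEGF-C. Neuropilins are co-receptors shared with the class 3 semaphorins. In vessels, pericytes are known as a source of VEGF-A for the endothelium that they cover.

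Promoter letters of 3 ligands are shown because Vegfa and Vegfb had lower and Vegfc higher signals in high glucose. Each line holds the 250 bases before the outermost start site in RefSeq (GRCm38.p6), read 5′ to 3′ on the strand of the gene. Capitals mark matches on either strand of 4 motifs. GGGCGG is the GC box bound by Sp1. The core of the hypoxia response element has the letters ACGTG or those of GCGTG. An E-box known from carbohydrate response elements is CACGTG, which overlaps the first form of that core. The windows are chr17:46032378-46032627 on the minus strand for Vegfa, chr19:6987652-6987901 on the minus strand for Vegfb and chr8:54077282-54077531 on the plus strand for Vegfc.
Vegfa: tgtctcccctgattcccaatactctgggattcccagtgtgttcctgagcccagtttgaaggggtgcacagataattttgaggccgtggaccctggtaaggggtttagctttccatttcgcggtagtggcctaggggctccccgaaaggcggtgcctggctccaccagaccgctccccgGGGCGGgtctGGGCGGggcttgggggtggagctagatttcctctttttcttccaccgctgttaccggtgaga
Vegfb: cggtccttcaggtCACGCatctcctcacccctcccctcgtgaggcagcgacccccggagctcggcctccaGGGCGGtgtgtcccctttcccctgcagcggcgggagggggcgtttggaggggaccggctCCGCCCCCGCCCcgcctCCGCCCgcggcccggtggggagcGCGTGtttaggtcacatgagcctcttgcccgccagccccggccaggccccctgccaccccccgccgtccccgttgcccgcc
Vegfc: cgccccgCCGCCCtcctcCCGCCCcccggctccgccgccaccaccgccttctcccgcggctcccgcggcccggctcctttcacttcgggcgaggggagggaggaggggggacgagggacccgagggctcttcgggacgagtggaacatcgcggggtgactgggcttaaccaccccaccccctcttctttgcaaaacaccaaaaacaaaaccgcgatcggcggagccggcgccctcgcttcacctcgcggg

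The capitals in the Vegfa window are 2 GC boxes, those in Vegfb are 4 GC boxes and 2 matches of GCGTG, and those in Vegfc are 2 GC boxes. Over the outermost start site of each of the 9 genes, GGGCGG occurred in 9 of 9 windows, against 32.7% of 32851 mouse promoter windows of the same length. GCGTG occurred in 6 of 9, in Vegfb, Pgf, Flt1, Kdr, Nrp1 and Nrp2, against 28.2% of all windows. ACGTG occurred in 0 of 9 and CACGTG in 0 of 9, against 16.6% and 6.02% of all windows. Before a second Vegfa start site in RefSeq, inside the gene, the window held 1 match of ACGTG, 1 of GCGTG and 1 of GGGCGG. The window before a second Pgf start site held 0 matches of any of the 4 motifs, so the counts depend on the start site. The windows of the 9 genes were rich in G and C, from 59.2% to 76.4% with a median of 68.4%, against a median of 52.4% over all windows. These are letter matches in short windows, not measured binding sites.

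Both arrays were read from 59305 gene spots, of which 57.6% were well above background in high glucose and 56.3% in normal glucose, and none was saturated. Log2 ratios are high over normal glucose after each array was set to its 75th percentile. That scaling raised high glucose by a factor of 1.06 relative to normal glucose, so a ratio is slightly higher than the printed signals give by themselves. Probes printed 10 times served to gauge precision within an array. Between such spots the median SD of log2 ratios was 0.29 for signals below 128, 0.10 from 128 to 512, 0.044 from 512 to 4096 and 0.032 above 4096. This SD covers spots of the same pools and not the spread between cultures. The largest SD of a probe in these bands was 0.82, 0.60, 0.66 and 0.066. Multiples of the spot SD below use the median SD of the band. Of the 12 probes, 10 were printed in 1 spot and have no SD of their own.

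The differences in the family were small. With the brighter probe standing for each gene, the 9 genes had a median log2 ratio of 0.019, against -0.0073 over 14178 named genes measured on both arrays. The log2 ratio was positive for 5 of the 9 and negative for 4, where 46.8% of all measured genes were positive and 53.2% negative. Only Flt4, at a signal close to background, was at least 1.2-fold lower, where 5.52% of all measured genes were, and 0 of 9 were at least 1.2-fold higher, where 6.8% were. With arrays set to their medians these shares of all genes were 8.41% lower and 5.01% higher. None of the 9 passed 1.5-fold, which 1.62% of genes did upwards and 1.19% downwards. At 1.1-fold, a limit chosen after the ratios were seen, 3 of 9 were higher (Vegfc, Pgf and Nrp1) and 3 of 9 lower (Vegfa, Flt1 and Flt4), against 14.6% and 14.3% of all genes. Among the 7 with a mean signal of at least 512, 2 were higher and 2 lower at 1.1-fold, against 8.4% and 8.46% of 9590 genes of that brightness, and 0 of 7 passed 1.2-fold in either direction, against 2.79% higher and 1.61% lower. With 9 genes, these counts are a few genes on either side.

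**Figure D1:**
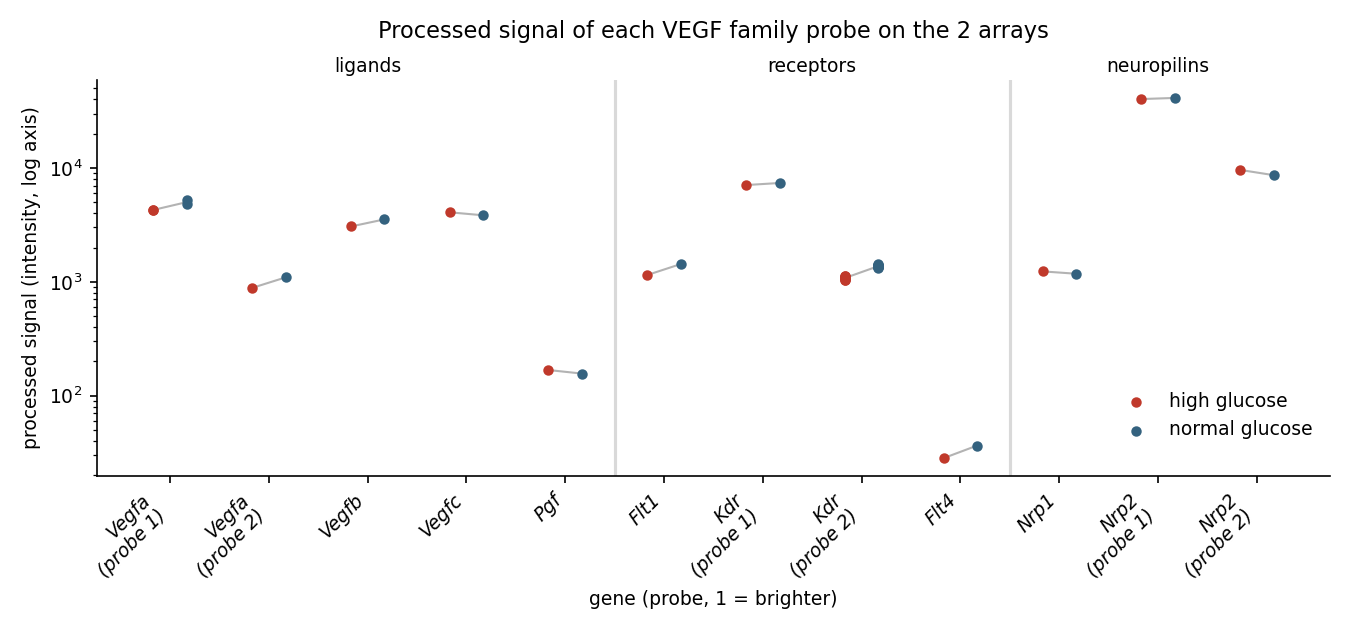
Processed signal (intensity, log axis) of the 12 probes of the 9 genes, with high glucose in red on the left and normal glucose in blue on the right of each pair, and every spot drawn. The signals ran from 28.2 for Flt4 in high glucose to 41238 for Nrp2 in normal glucose, and the lines between the arrays are close to flat. Levels of different probes cannot be compared, since probes differ in how well they bind.

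Among the ligands, Vegfa, the main angiogenic ligand, was lower in high glucose by both of its probes. The brighter probe, printed in 2 spots, read 4242 and 4308 in high glucose, against 5187 and 4840 in normal glucose. Both spots in high glucose were below both in normal glucose. The log2 ratio was -0.15 (1.11-fold lower), and the spots taken singly gave -0.21 and -0.09. The dimmer probe of Vegfa read 883 in high glucose and 1093 in normal glucose, a log2 ratio of -0.23 (1.17-fold lower). These were 4.67 and 5.20 times the median SD between repeat spots of like brightness, but the spots of the brighter probe had an SD of 0.086 between them, of which its ratio was 1.73 times. The ratios of the probes differed by 0.08. The median absolute difference was 0.09 over 3632 genes with at least 2 measured probes, not matched for brightness. Their ratios had the same sign in 59.2% of cases.

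Vegfb, a ligand of FLT1 linked to fatty acid uptake and vessel survival, read 3060 in high glucose and 3534 in normal glucose. Its log2 ratio was -0.13 (1.09-fold lower), 2.91 times the spot SD.

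Vegfc, the lymphatic ligand of FLT4, differed in the other direction and read 4078 in high glucose against 3837 in normal glucose. Its log2 ratio was 0.17 (1.12-fold higher), 3.81 times the spot SD. Pgf, placental growth factor, which binds FLT1 and not KDR, read 168 in high glucose and 156 in normal glucose. Its log2 ratio was 0.18 (1.14-fold higher), but at this brightness that was 1.81 times the spot SD. The ligands were thus split, with Vegfa and Vegfb lower and Vegfc and Pgf higher, and their median log2 ratio was 0.020.

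**Figure D2:**
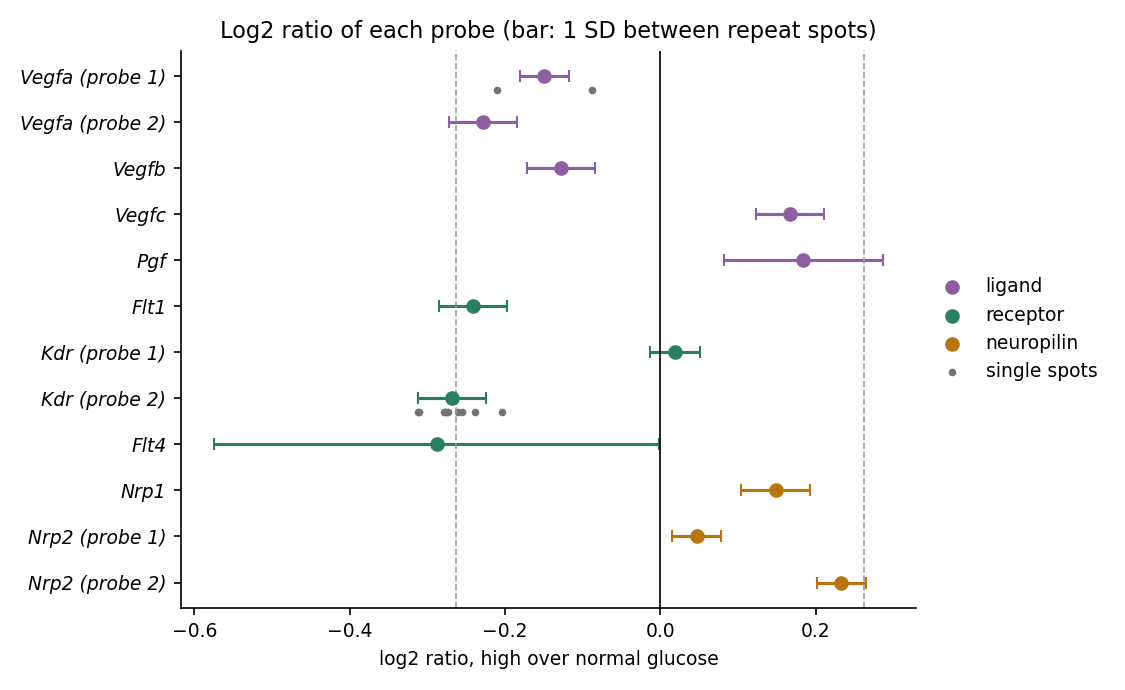
Log2 ratio of high over normal glucose for each probe, coloured by role, with bars of 1 SD between repeat spots of like brightness and small grey points for single spots of probes printed more than once. Dashed lines mark 1.2-fold. The Vegfa, Vegfb and Flt1 probes lie left of 0, those of Vegfc, Pgf, Nrp1 and Nrp2 right of it, the Kdr probes lie apart from each other, and the bar of Flt4 (0.29) is as long as its difference.

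Among the receptors, Flt1 had a log2 ratio of -0.24 (1.18-fold lower), just inside 1.2-fold. Its single spot read 1146 in high glucose and 1432 in normal glucose. The difference was 5.49 times the spot SD, and the median pixels of the spot gave -0.27.

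Kdr gave different answers by its probes. The brighter probe, in 1 spot, read 7075 in high glucose and 7379 in normal glucose, a log2 ratio of 0.019 that was 0.60 times the spot SD and became -0.042 when arrays were set to their medians. The dimmer probe was printed 10 times. Its spots read from 1033 to 1134 with a median of 1074 in high glucose, against 1320 to 1423 with a median of 1370 in normal glucose. The spots of the arrays did not overlap, also after scaling, which brought the highest spot in high glucose to 1198.

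The mean of the dimmer Kdr probe was 1079 ± 32.8 in high glucose and 1374 ± 29.4 in normal glucose (SD over 10 spots of 1 array each). Its log2 ratio was -0.27 ± 0.03 (SD, 10 spots) and just past 1.2-fold lower. All 10 of 10 spots were lower, from -0.31 to -0.20. The 2 Kdr probes differed by 0.29, and 13.5% of the 3632 genes with at least 2 measured probes had a difference at least that large. Those genes were not matched to Kdr for brightness and include dim probes, whose ratios vary more. The error between spots was far smaller than the difference between probes of the gene. Where on the Kdr transcript each probe binds is not given in the sources used here.

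**Figure D3:**
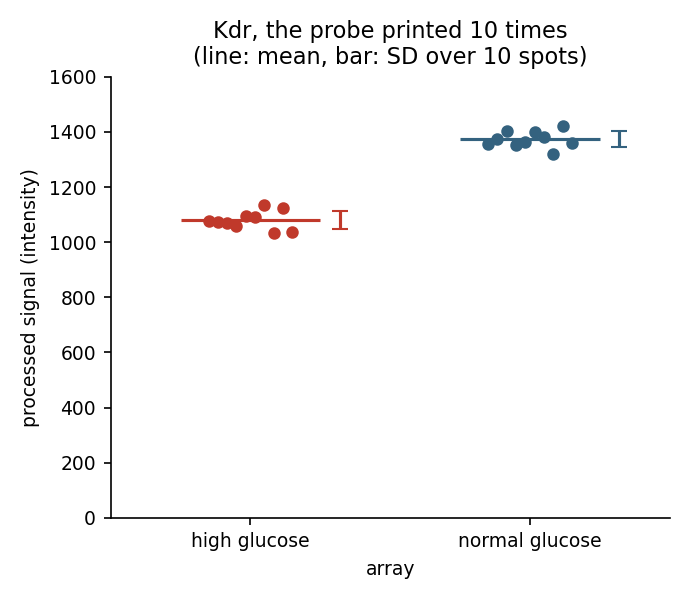
Processed signal (intensity) of the Kdr probe printed 10 times, with each spot as a point, the mean as a line and the SD over 10 spots as a bar, for high glucose on the left and normal glucose on the right. All 10 spots in high glucose (at most 1134) lie below all 10 in normal glucose (at least 1320).

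Flt4, the lymphatic receptor, lay close to background. It read 28.2 in high glucose and 36.4 in normal glucose, where the lowest spot called well above background read 23.998 in high glucose and 26.9 in normal glucose. Its log2 ratio of -0.29 (1.22-fold lower) was 1.01 times the spot SD of dim probes, and its median pixels gave -0.09. A difference in Flt4 was not detectable at this signal.

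Both neuropilins had positive log2 ratios. Nrp1, which binds the heparin-binding forms of VEGF-A and semaphorin 3A, read 1234 in high glucose and 1177 in normal glucose. Its log2 ratio was 0.15 (1.11-fold higher), 3.38 times the spot SD. Nrp2, the neuropilin of lymphatic and venous endothelium that binds VEGF-C, had 2 probes assigned to different RefSeq transcripts.

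The brighter Nrp2 probe read 40302 in high glucose and 41238 in normal glucose, a log2 ratio of 0.047 after scaling that turned to -0.014 when arrays were set to their medians. The other Nrp2 probe read 9613 in high glucose and 8643 in normal glucose, a log2 ratio of 0.23 (1.18-fold higher) and 7.31 times the spot SD. The probes differed by 0.19, and 25.8% of genes with at least 2 measured probes, not matched for brightness, differed by at least as much.

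The scan showed no flagged or saturated spot for the 12 probes. Spots that are not well above background around a probe show local shifts of the scan. Around the dimmer Vegfa probe, the Flt4 probe and the dimmer Nrp2 probe they were shifted by 0.39, 0.36 and -0.33 on the log2 scale, each opposite to the ratio of the probe. Around the other 9 probes the shift lay between -0.08 and 0.11. It had the direction of the ratio for Nrp1 (0.11, ratio 0.15) and the brighter Nrp2 probe (0.071, ratio 0.047). The same held for Flt1 (-0.08, ratio -0.24), the brighter Vegfa probe and Pgf. It was opposite for Vegfb, Vegfc and both Kdr probes. The part of these shifts in the ratios was not tested.

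**Figure D4:**
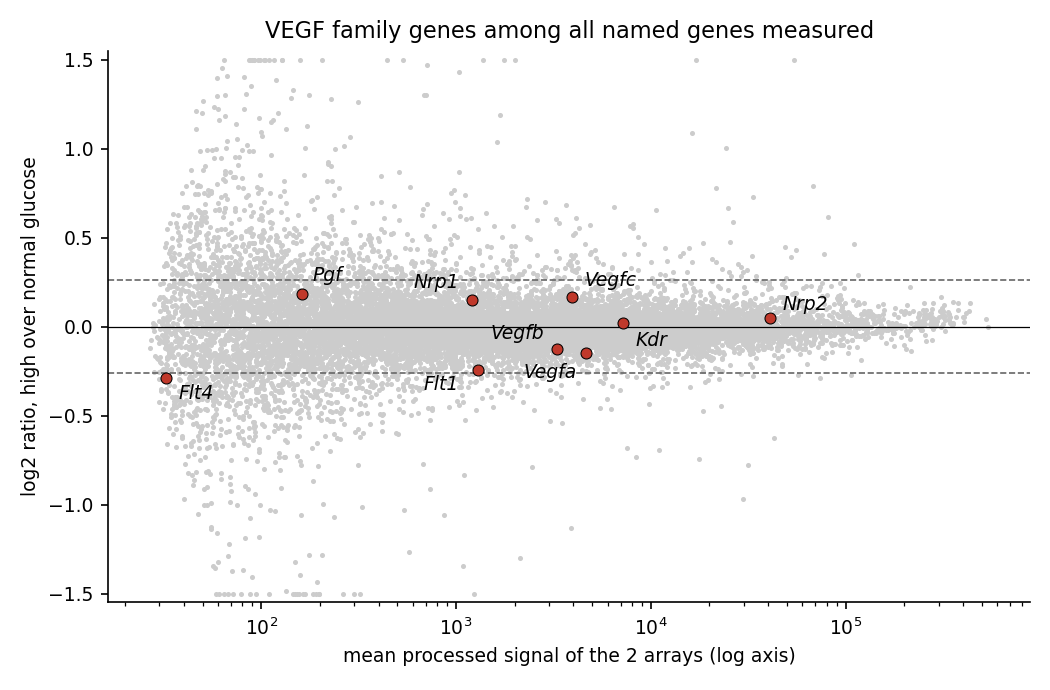
Log2 ratio of high over normal glucose against the mean processed signal (log axis) for 14178 named genes in grey and the 9 family genes in red, by the brighter probe, with 1.2-fold as dashed lines. The grey cloud widens at low signal, where Flt4 and Pgf lie, and Flt1 is close to the lower dashed line. Ratios beyond the axis are drawn at its edge.

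The receptors are known from endothelium, so markers of the cells that the culture could hold were read beside them. Of 15 endothelial markers, 9 were not well above background on either array: Cdh5 (VE-cadherin), Tek and Tie1 (the angiopoietin receptor and its partner), Emcn, Cldn5, the transcription factors Erg, Sox17 and Sox18, and Robo4. The other 6 were measured. In high glucose, Eng read 2569, Egfl7 4919, Nos3, the endothelial nitric oxide synthase, 476, Esam 120, Pecam1 90.0 and Vwf 48.5. In normal glucose, Eng read 2705, Egfl7 4996, Nos3 478, Esam 130, Pecam1 84.6 and Vwf 74.0. The summed signal of the 6 was 8222 in high glucose and 8468 in normal glucose. Summed signals here and below are taken before scaling between arrays and mostly follow the brightest probes. The median log2 ratio of the 6 was 0.031, with Vwf, at -0.53, past 1.2-fold, which at its dim signal was 1.85 times the spot SD.

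Of 5 lymphatic markers, Prox1, Lyve1 and Mmrn1 were not well above background on either array. Pdpn, which fibroblasts express too, was measured at 131282 in high glucose and 139047 in normal glucose, and Reln was well above background in normal glucose only. In pooled RNA, fewer cells of a type and less RNA per cell cannot be told apart.

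The pericyte list held 13 markers and 11 of them were measured. Their median log2 ratio was -0.10, with a summed signal of 110104 in high glucose and 120046 in normal glucose. The receptor Pdgfrb had a log2 ratio of 0.14, Cspg4 (NG2) -0.20, Anpep -0.14, Des (desmin) -0.26, Notch3 0.15 and Ndufa4l2 -0.14. Cd248 had -0.10, Mcam 0.0047 and Higd1b 0.062. Past 1.2-fold were Rgs5 at 0.58, with 133 in high glucose and 93.9 in normal glucose, and Abcc9 at -0.45, with 99.3 in high glucose and 144 in normal glucose. At these dim signals the ratios were 2.03 and 1.58 times the spot SD. Kcnj8 and Vtn were not well above background on either array.

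Markers of further cell types were read in the same way. Of all measured genes, 46.8% had positive ratios, and with arrays set to their medians the median of all genes was -0.068. Macrophages are known to carry FLT1, and 7 of 8 macrophage markers were measured, 7 with a positive log2 ratio by the brighter probe, or 6 with arrays set to their medians, and a median of 0.12. The 2 other probes of Itgam had a median of -0.36 and those of Csf1r -0.052, and Cd14, at 0.27, was past 1.2-fold. The summed signal of the 7 markers was 32086 in high glucose and 30910 in normal glucose. Most of it was the brighter Itgam probe, with 22557 in high glucose and 21959 in normal glucose. Ptprc (CD45) read 42.5 in high glucose and 39.1 in normal glucose. Of 8 smooth muscle markers, 8 were measured and 8 had positive ratios, or 6 with arrays set to their medians, with a median of 0.093 and a summed signal of 650935 in high glucose and 672578 in normal glucose. Of 10 fibroblast markers 9 were measured and 7 had negative ratios, with a median of -0.070, where 53.2% of all measured genes had negative ratios. Past 1.2-fold were Myocd at 0.81 among smooth muscle markers and Fap at -0.37 and Clec3b at -0.50 among fibroblast markers, with Myocd and Clec3b dim. Further, 4 of 5 Schwann cell and neural markers were measured with a median of -0.062. Fibroblast markers summed to 979386 in high glucose and 1023703 in normal glucose, and Schwann cell and neural markers to 4085 in high glucose and 4564 in normal glucose. The part of cell composition in the VEGF family ratios was not tested.

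Other genes of the pathway were read from 6 lists with 109 distinct genes, of which 105 were measured. Of these, 3 were at least 1.2-fold higher and 2 at least 1.2-fold lower in high glucose, with backgrounds of 6.8% and 5.52%. Among genes with a mean signal of at least 512, which many of the listed genes had, the backgrounds were 2.79% and 1.61%. Counts and largest ratios in the lists are by the brighter probe of each gene. Among co-receptors and proteins that process VEGF, 18 of 20 were measured and 0 passed 1.2-fold in either direction, with a median log2 ratio of -0.036. The other probe of Hspg2, at -0.36, and the median of 2 other Ccbe1 probes, at -0.32, did pass it. The largest ratio among the 18 was of Pcsk5, a protease of the family that matures VEGF-C, at -0.15. Among semaphorin 3 ligands and plexins, which signal with neuropilins, 11 of 12 were measured, 0 passed 1.2-fold and the median was -0.040. The largest ratio among the 11 was of the receptor Plxna1 at -0.21, with 955 in high glucose and 1169 in normal glucose.

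Below the receptors, 32 of 32 signalling genes were measured, with a median of 0.019 and 19 higher, where 46.8% of all measured genes were. With arrays set to their medians 9 were higher, and the median of all genes was then -0.068. Past 1.2-fold were 2 lower genes. The kinase Src read 71.1 in high glucose and 91.3 in normal glucose (log2 ratio -0.28), which at this dim signal was 0.98 times the spot SD. Nfatc1, a transcription factor activated through calcineurin, read 690 in high glucose and 884 in normal glucose (-0.28), while its other probe gave 0.047. In genes not past 1.2-fold by the brighter probe, the other probe gave -0.35 for Shb, 0.33 for Prkcb and 0.28 for Mapk3.

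Regulators of Vegfa transcription and message had a median log2 ratio of 0.084, with 13 of 19 higher, where 46.8% of all measured genes were. With arrays set to their medians 11 were higher, but the median of all genes was then -0.068, so the 46.8% does not apply. Past 1.2-fold were Arnt, the partner of HIF-1α, and Egln1, an oxygen-sensing prolyl hydroxylase. Arnt read 4267 in high glucose and 3559 in normal glucose (log2 ratio 0.34), but its other probe gave 0.0029. Egln1 read 126 in high glucose and 107 in normal glucose (0.33), which was 1.14 times the spot SD of dim probes.

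Of 12 other genes known as hypoxia targets beside Vegfa, all were measured, with a median of 0.024. Of them 7 were higher, where 46.8% of all measured genes were. With arrays set to their medians 4 were higher, but the median of all genes was then -0.068, so the 46.8% does not apply. By the brighter probe, Slc2a1, the glucose transporter GLUT1, was the single one past 1.2-fold, with 25209 in high glucose and 21262 in normal glucose (log2 ratio 0.33). P4ha1 had a log2 ratio of 0.032 by its brighter probe and -0.48 by the other. Among antagonists of VEGF signalling, 14 of 15 were measured, 11 were lower where 53.2% of all genes were, 0 passed 1.2-fold and the median was -0.045. The largest ratio among the 14 was of Vash1, vasohibin, at 0.24 with 42347 in high glucose and 38007 in normal glucose, while its 2 other probes had a median of 0.0076.

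**Figure D5:**
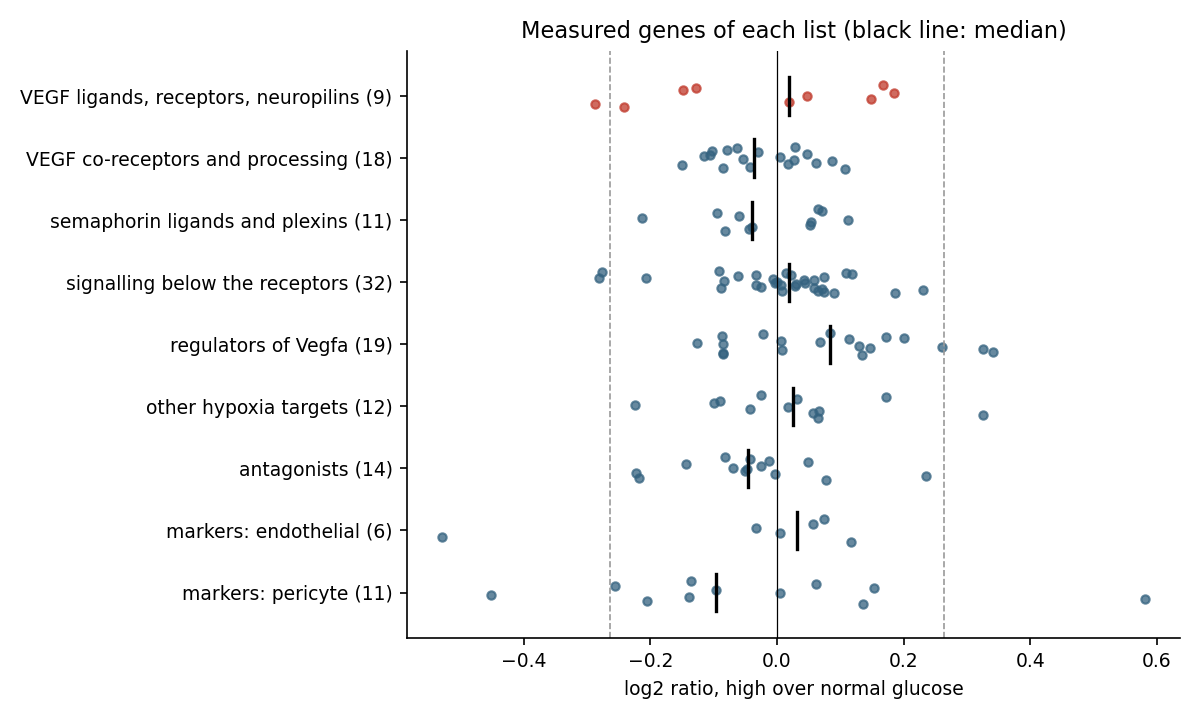
Log2 ratio of high over normal glucose for each measured gene of the VEGF family (red) and of the 6 pathway lists and the endothelial and pericyte markers (blue), with the number measured in brackets, black lines for medians and dashed lines at 1.2-fold. Of the lists drawn, the medians lie between -0.10 for pericyte markers and 0.084 for regulators of Vegfa, and the genes of the family spread from -0.29 to 0.18.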

How the data were processed

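Intensity values were deposited by the authors as 1-colour scanner output. Per the file headers they were extracted with Feature Extraction 11.5.1.1, while the submitters' processing notes name version 9.3.2.1. The processed signal is background-subtracted and detrended within an array and not scaled between arrays, and low values are replaced by small surrogates. The deposited value table matched it for 55249 of 55249 probes with 1 spot within a relative tolerance of 0.0001, with column medians of 48.9 for high and 49.6 for normal glucose.

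Control spots were left out, log2 signals were averaged over the spots of a probe, and the 75th percentile of each array over probes was subtracted. Probes were named through RefSeq transcripts of GRCm38.p6 (27509 of 55681 probes had 1 symbol). The array design names mm9, so no gene coordinates are printed beyond those of the promoter sequences. A probe was measured when at least 0.5 of its spots were well above background on both arrays and none was saturated, and the brightest measured probe stood for a gene. The shift of neighbouring spots is the median log2 ratio of median pixels over dim spots within 2 rows and columns, less that over all dim spots.

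Named were all 9 genes with every probe, the endothelial, lymphatic and pericyte markers, and from each pathway list up to 3 genes past 1.2-fold or otherwise the largest. Genes and lists were chosen with earlier results of these data known. The alternatives were 10 planned ones and 1 added later. The background model was planned on mean spot signals and was run on median spot signals, because the scanner output held no mean spot signals. Steps were tested on simulated data. Python 3.11.15, R 4.3.3 and limma 3.58.1 were used. The number of arrays limits the precision.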

Additional observations from a re-analysis of the deposited data

How the results depend on the processing

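Vegfa, Vegfb, Flt1 and Flt4 stayed lower and Vegfc, Pgf and Nrp1 higher in high glucose in all 11 alternatives. Those that change the probe, the filter or the source of the values could hardly move a gene with 1 probe. All 11 reread the same spots, and the difference in Flt4 was not detectable at its signal. The log2 ratio ranged from -0.23 to -0.14 for Vegfa, -0.19 to -0.09 for Vegfb, -0.30 to -0.23 for Flt1, -0.35 to -0.032 for Flt4, 0.11 to 0.18 for Vegfc, 0.12 to 0.19 for Pgf and 0.09 to 0.16 for Nrp1. Kdr ranged from -0.27 to 0.029 and Nrp2 from -0.014 to 0.23, by the choice of probe and by median centring, which lowers the median of all genes by 0.061. The median over the 9 genes, 0.019, became -0.042 with median centring, -0.12 with the median over probes and -0.13 with the dimmer probe of each gene, an alternative chosen after the data were seen. The count of the 9 genes at least 1.2-fold lower, 1, became 2 with median centring, 2 with the dimmer probe and 0 with the normexp background model and an offset of 50, which by itself shrinks dim ratios. In the pathway lists the count of lower genes, 2, became 7 with median centring, 0 with normexp, 4 without a filter on dim probes, 1 with the median over probes and 5 with the dimmer probe. The share of all genes at least 1.2-fold lower also moved with the setting. It was 8.41% with median centring, 3.31% with normexp, 9.82% without the filter, 5.61% with the median over probes and 6.74% with the dimmer probe. The count of higher genes, 3, became 5 without the filter and 5 with the looser detection rule. The share of all genes at least 1.2-fold higher, 6.8%, was then 11.03% and 10.29%. The count became 2 with normexp, with median pixels and with the median over probes, where the share was 3.94%, 5.53% and 6.85%. With the dimmer probe the count was 4 and the share 7.91%. With the 75th percentile over probes well above background on both arrays they were 4 and 7.03%. No paired analysis was possible because each group is 1 array. Signal over background limits Flt4 and Pgf.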

Other observations

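A few genes around the VEGF pathway were well above background on 1 array only, which gives a bound in place of a ratio. The bound sets the bright signal against the lowest spot well above background on the other array. Dll4, the Notch ligand known as a target of VEGF signalling in endothelial tip cells, read 119.9 in high glucose and 5.98 in normal glucose, at least 4.72-fold higher, from 1 spot whose median pixel was 159 in high glucose and 48 in normal glucose. Adamts3, the protease that activates VEGF-C together with Ccbe1, read 6.08 in high glucose and 72.5 in normal glucose, at least 2.86-fold lower. Sema3g read 22.7 in high glucose and 36.9 in normal glucose, at least 1.45-fold lower. Reln read 5.93 in high glucose and 54.7 in normal glucose, at least 2.16-fold lower. Each of these 4 rests on 1 spot per array, with no second probe. The bounds leave out the error of dim spots, with a median SD of log2 ratios of 0.29 for signals below 128. Dim spots around Adamts3 were shifted by -0.23, in the direction of its difference, and around the others by -0.02 to 0.07. The part of these shifts was not tested. The share of all named genes well above background on 1 array only is not given here.

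Vegfd, the other lymphatic ligand of FLT4, was picked with its values known. It read 21802 in high glucose and 21380 in normal glucose, a log2 ratio of 0.11 (1.08-fold higher). Ccbe1 had a log2 ratio of -0.09 with 4696 in high glucose and 5266 in normal glucose, and its 2 other probes had a median of -0.32. Serpinf1, the mouse gene of the factor added to the medium, read 117692 in high glucose and 128765 in normal glucose, a log2 ratio of -0.050.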
